A study of Mus musculus with 8 samples.

Results

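The proteasome and class I peptide-loading genes were examined in MHCII+CD64+ cells of the mouse colon sorted as GPR35-positive macrophages and in cells of the same animals sorted as GPR35-negative. The genes were chosen by name: every gene whose symbol starts with Psma to Psmg followed by a digit, plus Tap1, Tap2, Tapbp, Tapbpl, Erap1 and Nlrc5. This gave 55 of the 14980 genes in the count table, and all 55 passed the filter on low counts. The study sorted MHCII+CD64+ cells of the lamina propria by flow cytometry into a GPR35-positive and a GPR35-negative population. Each of 4 male mice gave both populations, so there were 4 libraries per group, made by low-input RNA sequencing with SMART-Seq amplification. No treatment or engineered allele is named in the labels, and the strain and age are not stated there either. GPR35 is a G protein-coupled receptor, and the series asks how the transcriptomes of cells with and without it differ.

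The proteasome degrades ubiquitin-tagged proteins inside a 20S barrel whose outer rings are built of alpha subunits and whose inner rings are built of beta subunits, with a 19S cap that recognises, unfolds and feeds in the substrate. Interferon-gamma and lymphoid or myeloid identity bring in the immunoproteasome, in which Psmb8, Psmb9 and Psmb10 take the places of the catalytic subunits Psmb5, Psmb6 and Psmb7, and the Psme1-Psme2 ring replaces or joins the cap. The peptides made are pumped into the endoplasmic reticulum by Tap1-Tap2, trimmed by Erap1 and fitted to MHC class I molecules with the help of tapasin (Tapbp) and the related editor Tapbpl. Nlrc5 is the transactivator that drives class I, Tap1, Psmb9 and B2m transcription.

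Library totals were 33776161 to 48609595 counts in GPR35-positive libraries and 15999301 to 30071863 counts in GPR35-negative libraries. Gpr35 had 91.9, 56.2, 69.0 and 76.1 CPM (each count over its library total, scaled by edgeR's TMM factors) in GPR35-positive libraries, against 3.21, 1.13, 2.84 and 4.69 CPM in GPR35-negative libraries, as the sort would give. The 16 macrophage markers summed to 3.97% to 4.47% of counts in GPR35-positive libraries and 0.514% to 2.32% in GPR35-negative libraries, and all 16 were called higher in GPR35-positive cells (edgeR, as below). The 11 B and plasma cell markers summed to 0.107% to 0.252% of counts in GPR35-positive libraries and 7.996% to 15.1% in GPR35-negative libraries, and all 11 were lower in GPR35-positive cells. T and innate lymphoid markers summed to 0.00452% to 0.00554% in GPR35-positive libraries and 0.0351% to 0.0601% in GPR35-negative libraries. Of these 8, 7 were lower in GPR35-positive cells, but with the animal as a block in the fit 4 were lower and 1 higher. In GPR35-negative libraries Cd28 and Cd2 had means of 254 and 141 CPM, against 4.97, 3.21 and 7.24 CPM for Cd3e, Cd3d and Cd3g. Il7r went the other way, with means of 30.9 CPM in GPR35-positive and 17.1 CPM in GPR35-negative libraries. Stromal and endothelial markers summed to 0.0843% to 0.176% in GPR35-positive libraries and 0.539% to 1.073% in GPR35-negative libraries, with 8 of 9 lower in GPR35-positive cells. Of the other lists, 1 of 7 epithelial markers and 2 of 5 granulocyte and mast cell markers were lower, and 1 of 7 dendritic cell markers was higher, in GPR35-positive cells. With the block, 3 epithelial and 1 granulocyte and mast cell markers were lower, and 2 dendritic cell markers were higher. No listed marker was at 0 in every library of a group. The GPR35-negative libraries thus carried macrophage and plasma cell RNA together. Of these, the plasma cell RNA went against the sort for MHCII+CD64+ cells. In bulk libraries, fewer cells of a type and less RNA per cell cannot be told apart, and the part these markers play in the differences below was not tested.

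Among proteasome and loading genes, more were lower than higher in GPR35-positive cells. The 55 genes took 0.527% to 0.547% of all counts in GPR35-positive libraries and 0.714% to 0.974% in GPR35-negative libraries, and these ranges did not overlap. With edgeR's quasi-likelihood test and Benjamini-Hochberg adjustment over all 14193 tested genes at 0.05, 23 of the 55 were lower and 2, Nlrc5 and Psme1, were higher in GPR35-positive cells, while 30 did not pass. Of all tested genes, 19.5% were called lower and 18.4% higher (38.0% in either direction). The members' log2 fold changes had a median of -0.36 and 47 of 55 lay below 0, beside a median of -0.05 over all tested genes, of which 52.4% lay below 0. The members' sizes were modest: 4 called members, Psmc3ip, Psmb5, Tapbpl and Nlrc5, differed at least 2-fold. By CPM ranges, GPR35-positive libraries lay wholly below GPR35-negative ones for 21 members (20.6% of all tested genes) and wholly above for 3 (21.5%), beside 42.1% of all tested genes in either direction. Library depth and the markers above also differed between the groups. With libraries thinned to equal totals, 26 members were lower (47.3%, beside 21.3% of all tested genes). The count of lower members also depended on how libraries were scaled, being 40 of 55 (72.7%, beside 29.5% of all tested genes) with scaling to total counts. With scaling to the constitutive 20S genes themselves it was 3 of 55 (5.45%, beside 11.2% of all tested genes), namely Psmb5, Psmc3ip and Tapbpl. That scaling holds the centre of these 20S genes near 0 and moved the median over all tested genes to 0.42. It therefore cannot show whether the 20S genes fell as a group.

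**Figure D1:**
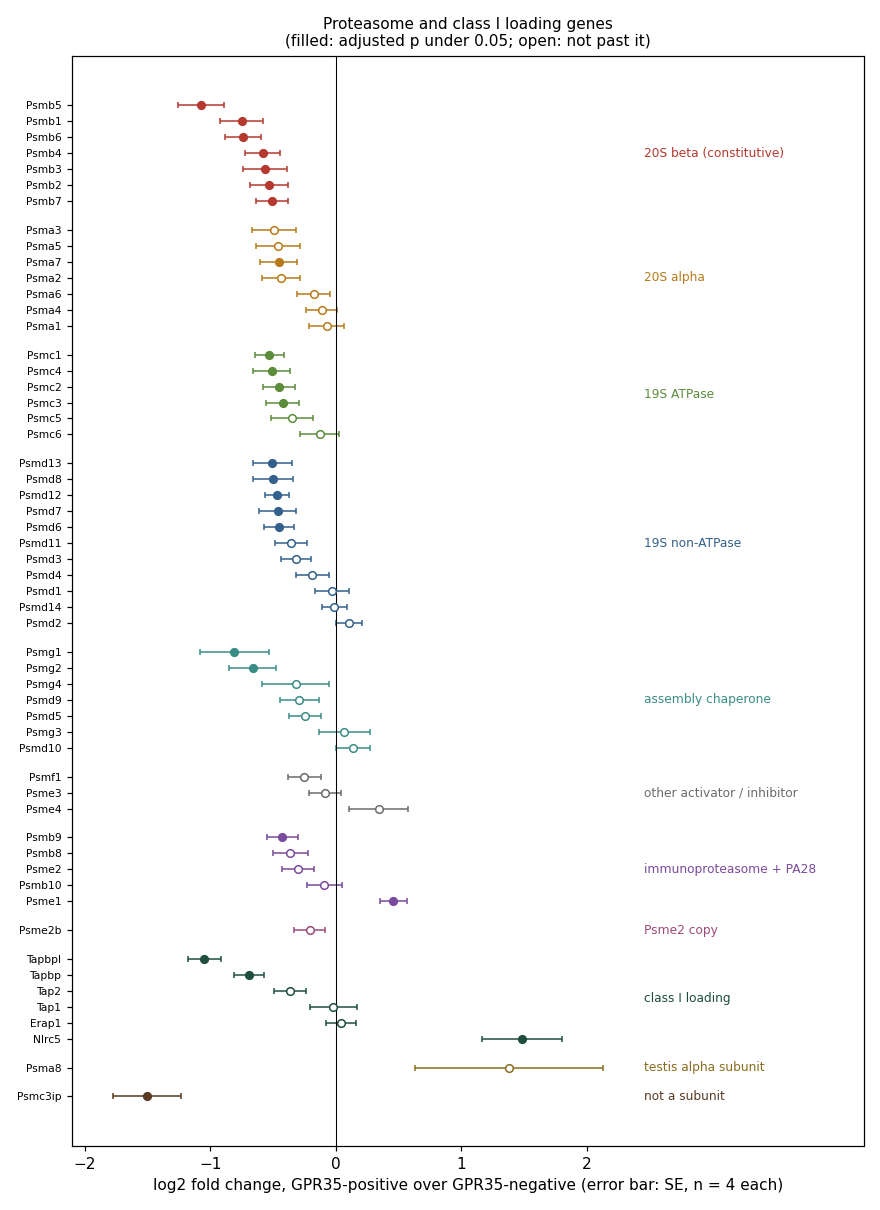
Log2 fold change (GPR35-positive over GPR35-negative) of the 55 genes with its standard error, grouped by role and with genes past the edgeR threshold marked. The 7 constitutive beta subunits all lie to the left of 0, between -1.07 and -0.51, whereas Psme1 (0.46) and Nlrc5 (1.48) lie to the right.

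All 7 constitutive beta genes, catalytic and not, were lower in GPR35-positive cells, with a median log2 fold change of -0.58. Each lay below 0 under every scaling tried. In 12 refits that each left out an animal or a library, Psmb2 kept its call in only 4 and Psmb3 in only 3. The CPM ranges of Psmb3 also overlapped. Psmb5, which carries the chymotrypsin-like activity, had 42.6, 52.7, 52.7 and 56.9 CPM in GPR35-positive libraries, against 74.9, 108.7, 120.8 and 127 CPM in GPR35-negative libraries. Every GPR35-positive library lay below every GPR35-negative library, a log2 fold change of -1.07 with a standard error of 0.18 (edgeR adjusted p = 0.00232; errors after ± beside log2 fold changes are standard errors). Psmb6, with the caspase-like activity, had 128, 158, 134 and 138 CPM in GPR35-positive libraries, against 189.6, 238, 225 and 278 CPM in GPR35-negative libraries. The groups did not overlap, at a log2 fold change of -0.74 ± 0.14 (edgeR adjusted p = 0.00437). Psmb7, with the trypsin-like activity, had 52.4, 58.8, 61.3 and 56.0 CPM in GPR35-positive libraries, against 67.9, 84.0, 80.1 and 93.4 CPM in GPR35-negative libraries. These groups were also apart, with a log2 fold change of -0.51 ± 0.13 (edgeR adjusted p = 0.0131). With scaling to the constitutive 20S genes, Psmb5 was still called lower.

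Sequences near the starts of these genes are shown because the constitutive genes moved together, and because the element TGACNNNGC is the core bound by the NFE2L1 and NFE2L2 factors, which are known to switch on proteasome subunit genes. The stretches are from RefSeq (GRCm38.p6), read 5′ to 3′ on the gene's strand, with the motif or its complement in capitals. The Psmb5 match at chr14:54618024-54618052 (minus strand) lies 47 bases before the gene's start. The Psmb6 match at chr11:70525338-70525366 (plus strand) lies 9 bases before the start that its RefSeq window uses, but inside the gene's full RefSeq range, which begins at base 70525324.
Psmb5: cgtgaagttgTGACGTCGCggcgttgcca
Psmb6: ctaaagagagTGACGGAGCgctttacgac
Over both strands of the 250 bases before the start, this motif was found for 5 of the 44 members with a RefSeq window, or 11.4%, namely Psmb5, Psmb6, Psmc6, Psmd12 and Psmd9. It was found in 10.2% of all 32851 windows, so the members' share was near the background.

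The immunoproteasome subunits were less even, and the signs of Psmb8, Psmb9 and Psmb10 turned positive with scaling to the constitutive 20S genes. That scaling also moved the median over all tested genes to 0.42. Psmb8, which replaces Psmb5, had 400.1, 438, 378 and 393 CPM in GPR35-positive libraries, against 425, 575, 503 and 564 CPM in GPR35-negative libraries. The lowest GPR35-negative library, that of animal 1, lay inside the GPR35-positive range, and the log2 fold change of -0.36 ± 0.14 did not pass (edgeR adjusted p = 0.0639). Psmb9, which replaces Psmb6, had 110.1, 105, 103 and 96.7 CPM in GPR35-positive libraries, against 123, 142, 129 and 163 CPM in GPR35-negative libraries. The groups were apart at a log2 fold change of -0.43 ± 0.12 (edgeR adjusted p = 0.0235), but the call was lost with the animal as a block (edgeR adjusted p = 0.0506). Psmb10, which replaces Psmb7, had 108, 111, 87.1 and 85.4 CPM in GPR35-positive libraries, against 107, 88.7, 104 and 117 CPM in GPR35-negative libraries. Its ranges overlapped and its log2 fold change was -0.09 ± 0.14 (edgeR adjusted p = 0.628).

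**Figure D2:**
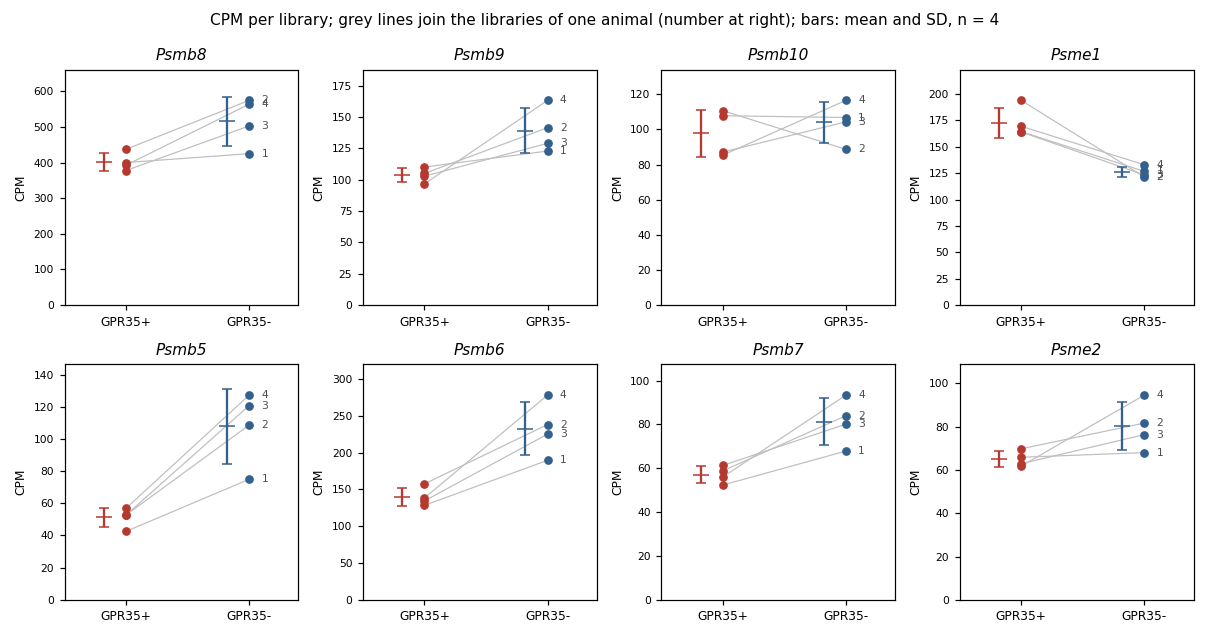
CPM of the 3 immunoproteasome catalytic genes, their constitutive counterparts, Psme1 and Psme2 in every library, GPR35-positive left of GPR35-negative, with grey lines joining the libraries of an animal and bars for mean and SD. Psmb5 separates the groups (42.6 to 56.9 CPM in GPR35-positive, 74.9 to 127 CPM in GPR35-negative libraries), while Psmb10 overlaps (85.4 to 111 CPM in GPR35-positive, 88.7 to 117 CPM in GPR35-negative libraries).

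Within a library, Psmb8 stood higher over Psmb5, and Psmb9 over Psmb6, in GPR35-positive cells, while Psmb10 over Psmb7 did not pass. These ratios do not depend on the scaling of libraries. There were 9.40, 8.30, 7.16 and 6.90 Psmb8 counts per Psmb5 count in GPR35-positive libraries, against 5.67, 5.29, 4.16 and 4.43 in GPR35-negative libraries. The groups did not overlap, the mean log2 ratio was 2.98 ± 0.20 in GPR35-positive and 2.28 ± 0.21 in GPR35-negative libraries (SD, n = 4 each), and the difference of 0.70, or 1.62-fold, was higher in 4 of 4 animals. The 2-sided exact permutation test gave p = 0.0286, the smallest that 4 against 4 allows, and an adjusted p of 0.0429 over 3 ratios. For Psmb9 over Psmb6, the mean log2 ratio was -0.43 ± 0.16 in GPR35-positive and -0.74 ± 0.08 in GPR35-negative libraries (SD, n = 4 each). The difference was 0.31, or 1.24-fold, again without overlap and higher in 4 of 4 animals (exact permutation p = 0.0286, adjusted p = 0.0429). With libraries thinned to equal totals, both ratios missed the threshold, at differences of 0.68 and 0.30 (adjusted exact permutation p = 0.0857 each). For Psmb10 over Psmb7 the mean log2 ratio was 0.77 ± 0.25 in GPR35-positive and 0.36 ± 0.24 in GPR35-negative libraries (SD, n = 4 each), a difference of 0.41 that overlapped and did not pass (exact permutation p = 0.0857, adjusted p = 0.0857). Flipping signs within animals cannot go below an exact p of 0.125, which is the value each ratio gave. The denominators had been seen to fall in earlier results of these data, so the ratios restate part of that difference.

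**Figure D3:**
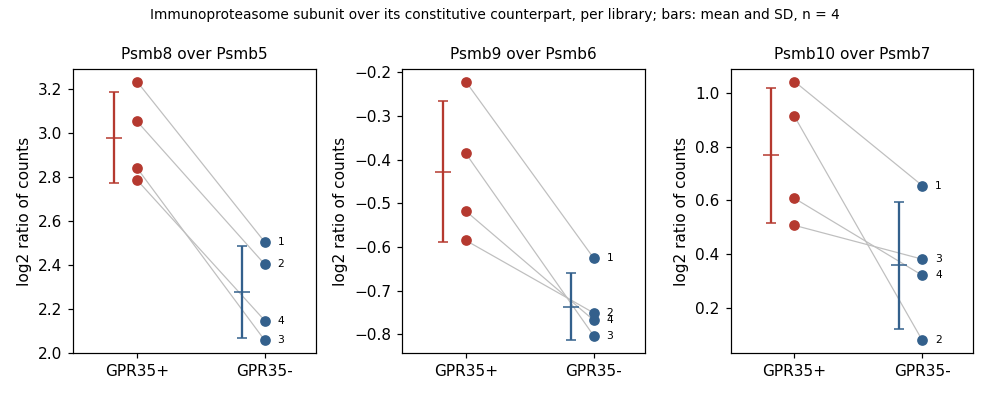
Log2 ratio of the immunoproteasome gene over its constitutive counterpart in each library, GPR35-positive left of GPR35-negative, with lines joining the libraries of an animal and bars for mean and SD. All 4 animals have a higher ratio in GPR35-positive cells for each of the 3 pairs, by 0.70, 0.31 and 0.41 on average.

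Per length, Psmb8 was the most abundant of the 17 20S genes compared (the alpha and beta genes without Psma8) in both groups, with 329 ± 20.8 CPM per kilobase in GPR35-positive and 423 ± 56.3 CPM per kilobase in GPR35-negative libraries (SD, n = 4 each). Psmb8 made up 84.8% ± 1.80 of the Psmb8-Psmb5 pair per length in GPR35-positive libraries and 77.5% ± 2.53 in GPR35-negative libraries. Psmb9 made up 48.9% ± 2.78 of its pair with Psmb6 in GPR35-positive libraries and 43.6% ± 1.32 in GPR35-negative libraries. Psmb10 made up 56.5% ± 4.28 of its pair with Psmb7 in GPR35-positive libraries and 49.5% ± 4.09 in GPR35-negative libraries. In the order of CPM per kilobase, Psmb5 was rank 15 of 17 in GPR35-positive libraries and rank 12 in GPR35-negative libraries. Psma3 was last in both, at 16.8 CPM per kilobase in GPR35-positive and 23.6 in GPR35-negative libraries.

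Psmb9 and Psmb8 sit beside Tap1 and Tap2 in the class II region of the mouse MHC on chromosome 17. RefSeq places Psmb9 at chr17:34182030-34187330 (minus strand), Tap1 at chr17:34187556-34197225, Psmb8 at chr17:34198195-34201454 and Tap2 at chr17:34204479-34216321. Psmb9 and Tap1 start 225 bases apart in opposite directions and share the sequence between them, shown here because a single stretch lies before both genes. A CCAAT box lies 8 bases before the Psmb9 start, read on the minus strand, and 222 bases before the Tap1 start, read on the plus strand; both readings are of chr17:34187324-34187348.
Psmb9: gcagccgctgATTGGaaagccgagc
Tap1: gctcggctttCCAATcagcggctgc
CCAAT, on either strand, was found for 16 of 44 members and in 33.8% of all windows. The core of the interferon-stimulated response element, written as GAAA, any 2 bases and GAAA, was found for 3 of 44 members (Psmb3, Psmd4 and Psmd9) and in 2.98% of all windows. TGACGTCA, the X2 box to which class I transactivator complexes bind, was in 1.55% of all windows and in none of the 44 windows of members.

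The rest of the 26S particle followed the beta subunits in part. Of the 31 constitutive 20S and 19S genes, the 7 beta genes included, 17 were lower and none higher in GPR35-positive cells. Their median log2 fold change was -0.46. Outside the beta genes, 9 of the 17 genes of the 19S cap and 1 of the 7 alpha genes were lower. Of all tested genes, 19.5% were lower and 18.4% higher. With scaling to the constitutive 20S genes, 20 of the 31, 7 of them called lower with TMM, turned from below 0 to above it. That scaling sets the centre of the 14 20S genes among them near 0, so it cannot show whether they fell as a group. Among the 7 alpha genes, which form the gate of the barrel, Psma7 alone was called lower (-0.46 ± 0.15, edgeR adjusted p = 0.0384), and the median was -0.43. With the animal as a block, Psma3 was called lower too (edgeR adjusted p = 0.0349). Of the 6 ATPase genes of the 19S base, which unfold substrates, Psmc1, Psmc2, Psmc3 and Psmc4 were lower and Psmc5 and Psmc6 did not pass. Of the 11 other 19S genes, Psmd6, Psmd7, Psmd8, Psmd12 and Psmd13 were lower, and Psmd7 lost its call with the block (edgeR adjusted p = 0.0558). The CPM ranges of Psmd8 overlapped. In the 12 refits that each left out an animal or a library, Psmc3 and Psmd7 kept their calls in 2. Psmc4, Psmd8 and Psmd13 kept theirs in 3, Psmc2 in 5, Psmd6 in 7, Psmc1 in 10 and Psmd12 in 11. Psmd14, the deubiquitinase of the lid, had a log2 fold change near 0, and with scaling to total counts the only positive value in the 19S group, that of Psmd2, turned negative. Psmb1, a non-catalytic beta subunit and the largest decrease among members outside the catalytic and loading genes apart from Psmg1 and Psmc3ip, had 149, 167, 149.7 and 156 CPM in GPR35-positive libraries, against 191, 251, 264 and 339 CPM in GPR35-negative libraries. Its groups did not overlap and its log2 fold change was -0.75 ± 0.17 (edgeR adjusted p = 0.00909), and the call was lost without animal 3.

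Psmd2, a ubiquitin receptor of the 19S base, had 235, 219, 229 and 221 CPM in GPR35-positive libraries, against 215, 205, 222 and 198 CPM in GPR35-negative libraries. The ranges overlapped, at a log2 fold change of 0.11 ± 0.10 (edgeR adjusted p = 0.44). Psmd10, the oncoprotein gankyrin and a chaperone of 19S assembly, had 39.4, 33.7, 31.4 and 38.4 CPM in GPR35-positive libraries, against 29.9, 30.1, 33.3 and 36.7 CPM in GPR35-negative libraries. These overlapped as well, with a log2 fold change of 0.14 ± 0.14 (edgeR adjusted p = 0.455).

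Of the 7 assembly chaperones, Psmg1 and Psmg2, which pair up to start the alpha ring, were lower in GPR35-positive cells, and Psmg3, Psmg4, Psmd5, Psmd9 and Psmd10 did not pass. Psmg1 had 12.5, 20.01, 12.7 and 13.7 CPM in GPR35-positive libraries, against 18.3, 26.4, 20.1 and 38.4 CPM in GPR35-negative libraries. The GPR35-positive library of animal 2 was well above the other 3 and reached into the GPR35-negative range, at a log2 fold change of -0.81 ± 0.28 (edgeR adjusted p = 0.0464). Psmg2 had 20.5, 21.1, 19.7 and 24.2 CPM in GPR35-positive libraries, against 25.2, 37.3, 30.0 and 42.8 CPM in GPR35-negative libraries. Its groups were apart, and its edgeR adjusted p was 0.0223.

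The proteasome activators divided. Psme1 (PA28 alpha, at chr14:55578494-55581527) had 164, 194, 164 and 169 CPM in GPR35-positive libraries, against 127, 121, 123 and 133 CPM in GPR35-negative libraries. All GPR35-positive libraries were above all GPR35-negative ones, at a log2 fold change of 0.46 ± 0.11 (edgeR adjusted p = 0.0101). The call was lost with upper-quartile scaling, with scaling to total counts and without animal 3. With scaling to macrophage markers the value turned to -2.11, beside a median of -2.61 over all tested genes. Its partner Psme2 (PA28 beta, at chr14:55587440-55591101) lies 5912 bases farther along the same chromosome. Psme2 had 65.9, 69.8, 62.9 and 61.8 CPM in GPR35-positive libraries, against 68.0, 81.7, 76.3 and 94.6 CPM in GPR35-negative libraries. The ranges overlapped in animal 1's GPR35-negative library, at a log2 fold change of -0.30 ± 0.13 (edgeR adjusted p = 0.0902). There were 2.66 ± 0.13 Psme1 counts per Psme2 count in GPR35-positive libraries (2.496 to 2.78) and 1.59 ± 0.20 in GPR35-negative libraries (1.41 to 1.86; SD, n = 4 each). No test was made of this ratio, which was picked with its values in view. Psme2b, a near-identical copy of Psme2, had a log2 fold change of -0.21 ± 0.13, and the split of reads between the copies is uncertain. Counted over Psme2 and Psme2b together, there were 0.798 ± 0.05 Psme1 counts per count in GPR35-positive libraries and 0.499 ± 0.06 in GPR35-negative libraries (SD, n = 4 each).

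The other regulators of the barrel did not pass the test. Psme3, the nuclear activator PA28 gamma, had 108, 96.5, 101 and 109.7 CPM in GPR35-positive libraries, against 90.6, 126, 116 and 109 CPM in GPR35-negative libraries. Psme4, the activator PA200, had 23.0, 12.0, 20.2 and 24.7 CPM in GPR35-positive libraries, against 17.5, 14.4, 16.3 and 14.9 CPM in GPR35-negative libraries. Both overlapped between groups, with log2 fold changes of -0.09 ± 0.13 and 0.34 ± 0.24 (edgeR adjusted p = 0.602 and 0.276). Psmf1, an inhibitor of the 20S core, had a log2 fold change of -0.25 ± 0.13 (edgeR adjusted p = 0.16).

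Psma8 and Psmc3ip matched the naming rule but belong to germ cell biology. Psma8, the testis form of an alpha subunit, had 3.87, 8.33, 3.47 and 3.42 CPM in GPR35-positive libraries, against 0.336, 3.21, 0.679 and 3.12 CPM in GPR35-negative libraries. The groups did not overlap, but the GPR35-negative libraries differed widely among themselves, and the log2 fold change of 1.38 ± 0.75 did not pass (edgeR adjusted p = 0.174). Psmc3ip, a cofactor of meiotic recombination and no part of the proteasome, had 3.33, 5.35, 4.82 and 4.56 CPM in GPR35-positive libraries, against 9.02, 13.3, 13.0 and 15.9 CPM in GPR35-negative libraries. Its groups were far apart, with a log2 fold change of -1.50 ± 0.27 (edgeR adjusted p = 0.00314).

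Class I peptide loading was split between the transactivator and the editors. Nlrc5 had 62.1, 24.2, 35.5 and 32.3 CPM in GPR35-positive libraries, against 17.8, 12.0, 15.7 and 9.64 CPM in GPR35-negative libraries. No GPR35-positive library overlapped the GPR35-negative ones, animal 1's GPR35-positive library was the highest, at a log2 fold change of 1.48 ± 0.32 (edgeR adjusted p = 0.00696). With scaling to macrophage markers the value turned to -1.03 (edgeR adjusted p = 0.075), beside a median of -2.61 over all tested genes. Tapbp, tapasin, which bridges class I to the transporter, had 668, 573, 592 and 577 CPM in GPR35-positive libraries, against 918, 956, 1022 and 995 CPM in GPR35-negative libraries. The groups were apart, with a log2 fold change of -0.69 ± 0.12 (edgeR adjusted p = 0.00262). Tapbpl, which edits peptides away from the transporter, had 61.0, 61.6, 49.6 and 51.7 CPM in GPR35-positive libraries, against 96.7, 117, 128 and 121 CPM in GPR35-negative libraries. These groups were apart too, at a log2 fold change of -1.05 ± 0.13 (edgeR adjusted p = 6.44e-04).

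Tap1, the first chain of the transporter, had 234, 159, 140.3 and 134 CPM in GPR35-positive libraries, against 178, 183, 160.5 and 156 CPM in GPR35-negative libraries. Animal 1's GPR35-positive library was the highest of all 8 and the other 3 lay at or below the middle of the GPR35-negative range, with a log2 fold change of -0.02 ± 0.19 (edgeR adjusted p = 0.945). Tap2, the second chain, had 183, 168.5, 164 and 140.0 CPM in GPR35-positive libraries, against 193, 233, 221 and 196 CPM in GPR35-negative libraries. The groups did not overlap, yet the log2 fold change of -0.36 ± 0.13 missed the threshold (edgeR adjusted p = 0.0505). Erap1, the trimming aminopeptidase, had 103, 85.8, 91.9 and 101 CPM in GPR35-positive libraries, against 92.1, 97.5, 101 and 81.1 CPM in GPR35-negative libraries. The ranges overlapped throughout, with a log2 fold change of 0.04 ± 0.12 (edgeR adjusted p = 0.806). In the GENCODE M21 annotation, over all transcripts but those with retained introns, exons of 14 members overlap those of another gene in the table. Among them are Tap1 with Psmb9 (whose RefSeq ranges do not overlap), Psme1 with Emc9, Tapbp with Zbtb22, Erap1 with Cast, Nlrc5 with 9330175E14Rik, Psmb7 with Nek6 and Psmc3ip with Mlx. Reads in a shared stretch cannot be told apart where counting did not use strand, nor in either case for Tapbp and Zbtb22, which lie on the same strand.

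**Figure D4:**
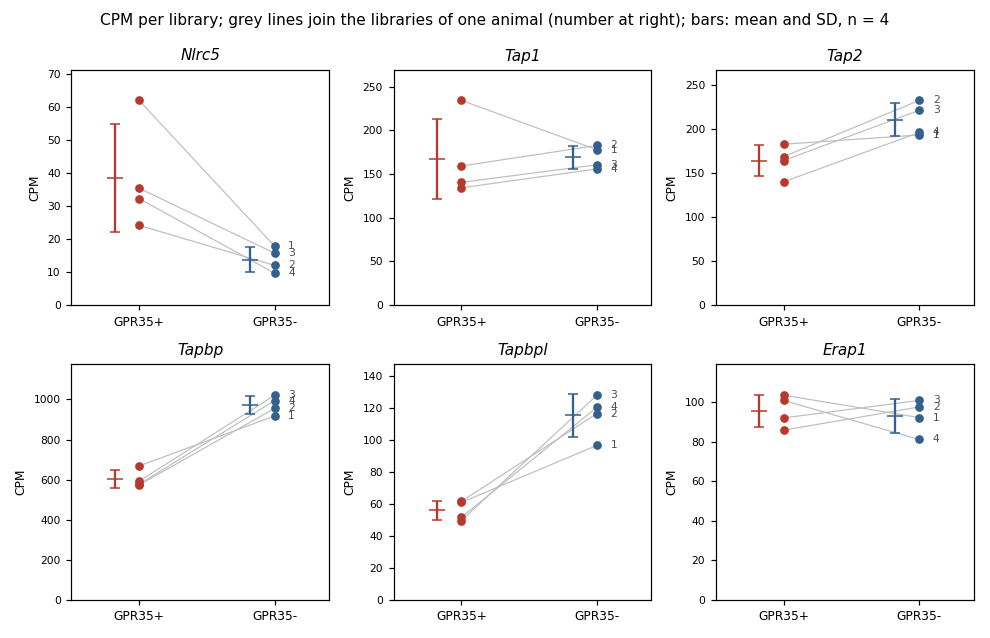
CPM of the 6 loading genes in every library, GPR35-positive left of GPR35-negative, with grey lines joining the libraries of an animal and bars for mean and SD. Nlrc5 is higher in all GPR35-positive libraries (24.2 to 62.1 CPM, against 9.64 to 17.8 CPM in GPR35-negative libraries), Tapbp and Tapbpl are lower in all of them, and Erap1 overlaps.

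The decreases differed in size between animals. The 7 constitutive beta genes had a median log2 difference in CPM of -0.36, -0.51, -0.61 and -0.96 in animals 1, 2, 3 and 4, and of the 31 constitutive subunits 24, 29, 28 and 28 lay below 0. In all, 22 of these 31 genes were lower in GPR35-positive cells of all 4 animals, as were 33 of the 55 members, beside 29.4% of all tested genes. The wider spread lay in the GPR35-negative libraries: that of animal 1 was the lowest of its group for 28 of the 31 genes and that of animal 4 the highest for 27. The median coefficient of variation over the 55 members was 8.24% in GPR35-positive and 13.9% in GPR35-negative libraries, and it was larger in GPR35-negative libraries for 44 members. The marker sums differed between animals as well. The GPR35-negative library of animal 1 had the highest macrophage sum (2.32%) and the lowest B and plasma cell sum (7.996%) of its group. That of animal 4, at 0.705% and 11.7%, did not hold the other ends. The lowest macrophage sum was in animal 3 (0.514%) and the highest B and plasma cell sum in animal 2 (15.1%). The part of these markers in the spread was not tested. Without animal 1, 28 members were called lower (50.9%, beside 16.7% of all tested genes). Without animal 2 there were 8 (14.5%, beside 15.7%), without animal 3 there were 5 (9.09%, beside 12.2%) and without animal 4 there were 9 (16.4%, beside 11.8%), so that without animal 2 or 3 the members' share lay below that of all genes. Without the GPR35-positive library of animal 1, 2, 3 or 4 alone there were 11, 16, 12 and 12. These were 20%, 29.1%, 21.8% and 21.8% of members, beside 14.5%, 16.7%, 16.6% and 14.1% of all tested genes. Without the GPR35-negative library of animal 1, 2, 3 or 4 alone there were 30, 11, 17 and 14. These were 54.5%, 20%, 30.9% and 25.5% of members, beside 21.1%, 17.8%, 15.1% and 16.8% of all tested genes. Leaving out each animal or single library in turn, 12 refits in all, 6 members were called every time, namely Nlrc5, Psmb5, Psmb6, Psmc3ip, Tapbp and Tapbpl. Among the other decreases given above with values, Psmb7 was called in 9 of the 12 refits, Psmb9 and Psmg2 in 5 each, and Psma7 and Psmg1 in 3 each.

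**Figure D5:**
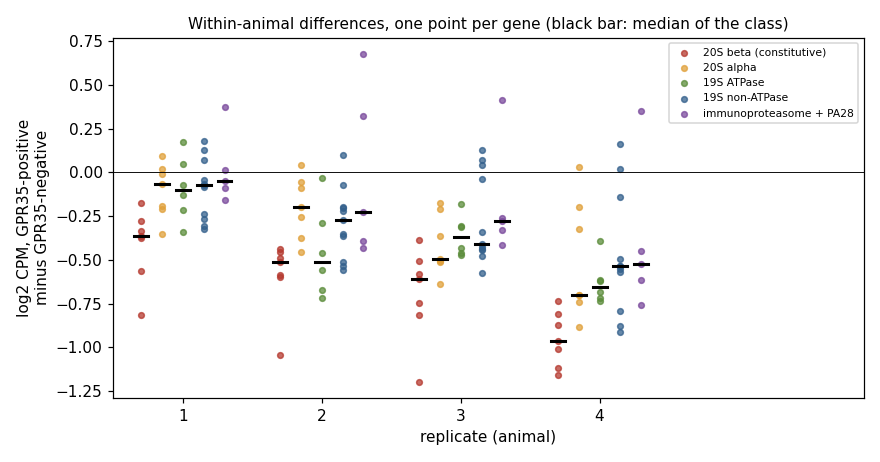
Log2 difference in CPM (GPR35-positive minus GPR35-negative) in each of the 4 animals, 1 point per gene, for the constitutive 20S and 19S classes and the immunoproteasome genes with Psme1 and Psme2; black bars are class medians. The constitutive beta genes have medians of -0.36, -0.51, -0.61 and -0.96 in animals 1 to 4.

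Genes that work beside the proteasome were called in both directions, as were all tested genes (18.4% higher and 19.5% lower). The lists are short and were not tested against these shares. Every increase given here turned negative with scaling to macrophage markers, where the median over all tested genes was -2.61. The macrophage markers were themselves higher in GPR35-positive cells, so that scaling lowers nearly every gene. B2m, Blmh, Vcp, Nfyb and Ngly1 lost their calls with scaling to the constitutive 20S genes, where that median was 0.42. Of 8 genes for class I chains and their folding in the endoplasmic reticulum, B2m, the class I light chain, was lower in GPR35-positive cells (-0.50 ± 0.16, edgeR adjusted p = 0.0370, but 0.0586 with the block) and 7 did not pass. H2-K1 had a log2 fold change of -0.41 ± 0.17, and the chaperones Calr and Pdia3 had values of -0.30 ± 0.14 and 0.23 ± 0.12. Of 7 cytosolic peptidases, which trim or destroy proteasome products, Rnpep (1.54 ± 0.25) and Tpp2 (0.86 ± 0.20) were higher and Blmh was lower (-0.53 ± 0.17, edgeR adjusted p = 0.0341, but 0.0509 with the block); Thop1 had a value of 0.55 ± 0.28 and did not pass. Of 14 partners and assembly factors, 3 were higher and 4 lower. The deubiquitinase Usp14 (0.56 ± 0.10) and Zfand5, a stimulator of 26S activity (1.09 ± 0.21), were higher, and the proteasome-bound thioredoxin Txnl1 (-1.05 ± 0.15) and the unfoldase Vcp (-0.72 ± 0.13) were lower.

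Regulators were also called in both directions, again beside 18.4% higher and 19.5% lower of all tested genes. Of 14 transcription factors and processing enzymes linked to proteasome or class I genes, 4 were higher and 2 lower in GPR35-positive cells. Nfe2l2, the oxidative stress factor, had 946, 818, 618 and 674 CPM in GPR35-positive libraries, against 304, 183, 113 and 142 CPM in GPR35-negative libraries, with a log2 fold change of 2.04 ± 0.31 (edgeR adjusted p = 0.0015). Creb1 was higher (0.82 ± 0.17), and Nfyb, a CCAAT-binding subunit, and Ngly1, which activates NFE2L1, were lower (-0.81 ± 0.18 and -0.51 ± 0.12). Nfe2l1, the factor that restores proteasome genes when the proteasome is inhibited, had a log2 fold change of -0.08 and did not pass. Of 8 genes of the interferon-gamma receptor and its signal, 7 were higher: Irf8 (2.04 ± 0.24), Ifngr2 (1.69 ± 0.22), Ifngr1 (1.46 ± 0.21) and Irf9 (0.70 ± 0.14) had the smallest p, and Jak1, Jak2 and Stat2 were also called. Macrophages express several of these genes as part of their identity, the macrophage markers moved in the same direction, and their part in these differences was not tested.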

How the data were processed

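RNA of sorted colonic lamina propria cells from 4 mice was sequenced after SMART-Seq v4 amplification and Nextera XT library preparation, per the labels' protocols. The authors deposited whole-number counts per gene, with gene lengths, for 8 libraries. The submitters' processing notes name STAR (2.5.2a), R (3.4.2) and mm10. The counting tool, its annotation and its use of strand are not stated there. Whether reads from antisense genes were separated is therefore not known, and reads in stretches shared on the same strand cannot be told apart.

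The counts were tested with edgeR 4.0.16 in R 4.3.3. Low genes were removed with filterByExpr at a minimum count of 10 and a total of 15. The rest were scaled by TMM and fitted with the robust quasi-likelihood F-test on GPR35-positive against GPR35-negative libraries, without a block. P-values were adjusted by Benjamini-Hochberg over all 14193 tested genes, with a threshold of 0.05, and fold changes are GPR35-positive over GPR35-negative. The 9 rows without a symbol (0.0179% of counts) were kept under their gene numbers. Ratios of catalytic genes were log2 ratios of counts, 0.5 added, tested by a 2-sided exact permutation over the 70 arrangements and adjusted over 3 ratios. Lists are described by counts and medians with no test. The scripts were tested on simulated data.

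Members, lists and tests were chosen with earlier results of these data known. Genes named with values were Gpr35, the 5 immunoproteasome genes and the 3 constitutive counterparts, Psme3, Psme4, the 6 loading genes, the 3 largest positive and 3 largest negative values among the other members, and up to 4 genes with the smallest p in each related list; Psma7, Psmg2, Psmf1, Psme2b, Psmd14, Nfe2l1 and members named in counts were added with their values in view. The labels give each animal an identity shared by its libraries, so equal numbers pair them. The correlation of deviations from group means within animals was 0.205, 0.206, 0.432 and 0.0637, and the highest with another animal was 0.104, 0.104, 0.237 and 0.237. No libraries were duplicates (smallest chi-square per degree of freedom 25.4). Alternatives were RLE, library-size, upper-quartile, macrophage-marker and 20S-core scaling, no filter or a filter at 5 CPM, DESeq2 1.42.0, limma voom 3.58.1, an animal block, thinning to equal depth, and leaving out each animal or library. Promoter windows are 250 bases before RefSeq starts (GRCm38.p6), for 44 of 55 members. Amplified reads carry no molecular identifiers.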

Additional observations from a re-analysis of the deposited data

Results flagged for a closer look

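In 3 of the 116 groups of 4 libraries examined for a value far from the others, the GPR35-positive library of animal 2 stood high. Psma8 had 8.331 CPM there, against 3.415 to 3.871 CPM in the other GPR35-positive libraries. Psmg1 had 20.01 CPM there, against 12.5 to 13.73 CPM in the others. Psmg3, an assembly chaperone of the alpha ring, had 26.06 CPM there, against 15.81 to 16.6 CPM in the others. In GPR35-negative libraries, Psmg3 had 15.74 CPM in animal 1, against 18.37 to 18.75 CPM in the others. Chance alone would flag about 1 in 20 groups, which is more than the 4 found among 116.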

How the results depend on the processing

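With scaling to macrophage markers 12270 of all genes were called, with 0 members higher and 53 lower (96.4%, beside 85.9% of all tested genes). The values were -2.53 for Erap1, -1.03 for Nlrc5, -1.25 for Psma8, -2.46 for Psmd10 and for Psmd2, -2.11 for Psme1, -2.19 for Psme4 and -2.53 for Psmg3. With scaling to total counts 1 member was higher (1.82%, beside 11.9% of all tested genes) and 40 lower (72.7%, beside 29.5%). The values were -0.25 for Erap1, -0.16 for Psmd10, -0.18 for Psmd2 and -0.23 for Psmg3. With upper-quartile scaling 1 was higher (1.82%, beside 15.2% of all tested genes), with -0.10 for Erap1, -0.0055 for Psmd10, -0.030 for Psmd2 and -0.066 for Psmg3. With scaling to the constitutive 20S genes 10 were higher (18.2%, beside 31.9% of all tested genes) and 3 lower (5.45%, beside 11.2%). These values turned positive under that scaling: Psma1 0.42, Psma2 0.066, Psma3 0.014, Psma4 0.36, Psma5 0.036, Psma6 0.31, Psma7 0.031, Psmb10 0.38, Psmb8 0.13, Psmb9 0.068, Psmc2 0.044, Psmc3 0.074, Psmc5 0.16, Psmc6 0.38, Psmd1 0.47, Psmd11 0.14, Psmd12 0.012, Psmd14 0.47, Psmd3 0.17, Psmd4 0.31, Psmd5 0.25, Psmd6 0.043, Psmd7 0.046, Psmd8 5.68e-05, Psmd9 0.18, Psme2 0.19, Psme2b 0.28, Psme3 0.40, Psmf1 0.24, Psmg4 0.20, Tap1 0.45 and Tap2 0.11. The median over all genes was -2.61, -0.34, -0.19 and 0.42 under these scalings, in the order given, and -0.05 with TMM; the share of calls that were higher was 0.603%, 28.7%, 39.2% and 74.1%, beside 48.5% with TMM. With the 5 CPM filter Erap1 was -0.041 and Psmg3 -0.012; with limma voom Psmd1 was 0.057, Psmd14 0.040 and Psmg3 -0.077. With the replicate block 2 members were higher and 22 lower, Psma3 gaining a call and Psmb9 and Psmd7 losing it; the paired sign flip left the ratio differences at 0.70 and 0.31 with an adjusted exact p of 0.125, the smallest it can give. With thinning to equal depth they were 0.68 and 0.30 (adjusted exact permutation p = 0.0857 each). Leaving out an animal or a library gave 3281 to 5971 calls over all genes, 1 to 2 higher and 5 to 30 lower members, and ratio differences of 0.61 to 0.77 for Psmb8 over Psmb5, 0.24 to 0.36 for Psmb9 over Psmb6 and 0.27 to 0.51 for Psmb10 over Psmb7. It turned the sign of Erap1 (-0.044 to 0.16), Psma1 (-0.14 to 0.030), Psmb10 (-0.18 to 0.030), Psmc6 (-0.23 to 0.013), Psmd1 (-0.092 to 0.10), Psmd14 (-0.041 to 0.061), Psme3 (-0.19 to 0.067), Psmg3 (-0.13 to 0.16), Psmg4 (-0.48 to 0.020) and Tap1 (-0.22 to 0.088). The scalings moved the median over all genes to the values above, and the leave-outs had fewer libraries. What else lay behind these changes was not tested.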
